A study of Mus musculus with 6 samples.

Results

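Imprinted growth control genes are described here in mesenchymal stem cells of mouse bone marrow, the precursors of bone-forming cells, fat cells and chondrocytes. The set was defined by name as 10 genes: Igf2, Dlk1, H19, Meg3, Cdkn1c, Grb10, Ndn, Plagl1, Peg3 and Mest. Of these, 9 had a row among the 19353 genes of the count table, and 8 passed the filter on low counts and were tested among 13662 genes. Mest was too low to test, and Meg3 had no row under that name and was not analysed here. All samples were wild-type primary cells purified from bone marrow. Bone formation was induced in every sample with dexamethasone (100 nM), β-glycerophosphate (10 mM) and ascorbic acid (50 µM). The 3 MCH samples additionally received melanin-concentrating hormone, a neuropeptide of the hypothalamus, at 0.5 µM, and the 3 Control samples did not. The titles place sampling at day 9 of induction and the series design at day 8, and the labels used here name no strain, age or sex, and do not say whether samples came from separate mice or cultures. The p-values therefore rest on sample-to-sample spread that may be technical in origin.

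An imprinted gene is expressed mainly from the copy inherited from 1 parent, because the other copy carries a DNA methylation or chromatin mark set in the germ line. Many such genes act on growth in opposed directions: the paternally expressed Igf2 and Dlk1 encode a growth factor and a surface protein, while the maternally expressed H19, Cdkn1c and Grb10 restrain growth. Most are abundant in fetal tissues and are turned down after birth. The counts used here sum both parental copies, so they measure the amount of RNA and not the imprint.

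The libraries held 16521980 to 18803949 counted reads. Levels are given as CPM, read counts scaled to a common library total with TMM factors. The labelled cell type was checked against its markers. Of 10 mesenchymal stromal genes all were tested, with Col1a1, Pdgfra and Pdgfrb high. Lepr had 5 to 20 counts per library, Thy1 36 to 59, Nt5e 81 to 179 and Eng 150 to 200. The summed level of the stromal list was 4690 to 4990 CPM with MCH and 6520 to 7170 CPM in Control. Col1a1 alone gave 3630 to 4030 CPM of it with MCH and 4940 to 5570 CPM in Control. Of 7 osteoblast genes, the matrix genes Col1a2 and Spp1 were abundant (69402 to 112929 and 8629 to 19727 counts), Runx2 had 783 to 1111 counts and Alpl 243 to 712, while Postn had 6 to 54, Sp7 3 to 4 and the late gene Bglap 0 to 3. The summed level of this list was 4470 to 4920 CPM with MCH and 6870 to 7270 CPM in Control. Col1a2 alone gave 3920 to 4350 CPM of it with MCH and 5730 to 6100 CPM in Control. Of 5 myoblast genes, which mark a lineage where H19, Igf2 and Dlk1 can be high, 1 had a row (Des, 17 to 43 counts). Of 9 leukocyte and macrophage genes 2 were tested, the pan-leukocyte gene Ptprc had 0 to 2 counts, and the summed level was 6.86 to 23.4 CPM with MCH and 5.57 to 10.3 CPM in Control. The highest of these values was in MCH replicate 3, where the macrophage gene Adgre1 had 50 counts against 0 to 11 elsewhere. Of the smooth muscle and pericyte genes, Acta2 had 22039 to 28904 counts, Tagln 2150 to 3049 and Cnn1 958 to 1196. Myh11 had 3 to 12 and Rgs5 0 to 7. Of the adipocyte genes, Lpl had 808 to 1323, Fabp4 735 to 1215 and Adipoq 0 to 3. Of the chondrocyte genes, Sox9 had 397 to 611, Acan 120 to 256 and Col2a1 1 to 11. The endothelial gene Pecam1 had 28 to 67.

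Dlk1 was the 1 member that passed the test, and its promoter is shown for that reason. The promoter of Grb10, a member with nearly equal levels in both groups, is shown beside it because its window held the most CpG of the windows found. Each sequence is the 250 bases before the first start site that RefSeq lists (build GRCm38.p6), 5′ to 3′ on the gene's strand, with CpG dinucleotides, the sites of DNA methylation, in capitals.
Dlk1 promoter, chr12:109452573-109452822, plus strand: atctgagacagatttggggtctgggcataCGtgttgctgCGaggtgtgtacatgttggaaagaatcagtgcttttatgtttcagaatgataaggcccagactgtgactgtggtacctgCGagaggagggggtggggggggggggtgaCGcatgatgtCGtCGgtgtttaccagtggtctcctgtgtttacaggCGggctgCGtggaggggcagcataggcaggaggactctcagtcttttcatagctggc
Grb10 promoter, chr11:12037421-12037670, minus strand: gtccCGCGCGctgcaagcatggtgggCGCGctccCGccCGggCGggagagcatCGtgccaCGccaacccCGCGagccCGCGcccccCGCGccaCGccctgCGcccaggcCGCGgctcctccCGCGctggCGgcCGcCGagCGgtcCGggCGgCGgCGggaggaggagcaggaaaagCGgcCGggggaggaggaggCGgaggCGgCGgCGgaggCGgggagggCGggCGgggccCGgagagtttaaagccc
The Dlk1 window held 8 CpG dinucleotides and 54.8% G and C, and the Grb10 window 40 and 81.2%. Over 32851 promoter windows of the same length the median was 6 CpG, and 57.0% of windows held fewer than Dlk1 and 98.7% fewer than Grb10. RefSeq gave 15 such windows for 8 of the 10 genes (none for H19 and Cdkn1c), since Igf2, Mest, Meg3 and Grb10 have several starts. Of the 15, 11 held more CpG than the median. The windows are not independent: windows 2 and 3 of Mest begin at 30737800 and 30737803 and are nearly the same sequence. The TATA box (TATAAA, searched on both strands) was in 1 of the 15, upstream of Meg3, against 12.4% of all windows, and the GC box (GGGCGG, on either strand, which itself holds a CpG) was in 7 against 32.7%. The windows with a GC box belonged to Mest, Igf2, Grb10 and Plagl1 alone. The TATA box and GC box matches are of letters only and show no binding.

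H19 also carries a microRNA. The hairpin of miR-675 lies within an exon of H19 (chr7:142577064-142577147, minus strand), so H19 RNA is its precursor. Its 2 mature arms are given with bases 2 to 8, the seed that pairs with targets, in capitals.
mmu-miR-675-5p: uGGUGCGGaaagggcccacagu
mmu-miR-675-3p: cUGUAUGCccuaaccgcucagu
The libraries were made from polyadenylated RNA, so the mature arms were not measured.

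With MCH, 1 of the 8 tested members was lower (Dlk1) and none was higher. Over all 13662 genes, 9.04% passed the same test in either direction (edgeR, adjusted p under 0.05 over all genes), 5.4% lower and 3.64% higher. One call among 8 members is thus near the background share and is no result about the set. The fold changes of 7 members were below 0, against 49.7% of all genes, and their median was -0.32 on the log2 scale (MCH minus Control) against 0.0021 for all genes. An unadjusted p under 0.05 was reached by 3 of the 8 (Dlk1, Cdkn1c and Igf2), against 26.8% of all genes. In 2 members, Dlk1 and Cdkn1c, all MCH libraries lay below all Control libraries, which held for 16.6% of all genes, and in the other 6 the groups overlapped. Of the 7 members below 0, Peg3 and Grb10 turned above 0 in some alternatives. The members were chosen with earlier results of these data known, so these shares and the median are a description only.

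**Figure D1:**
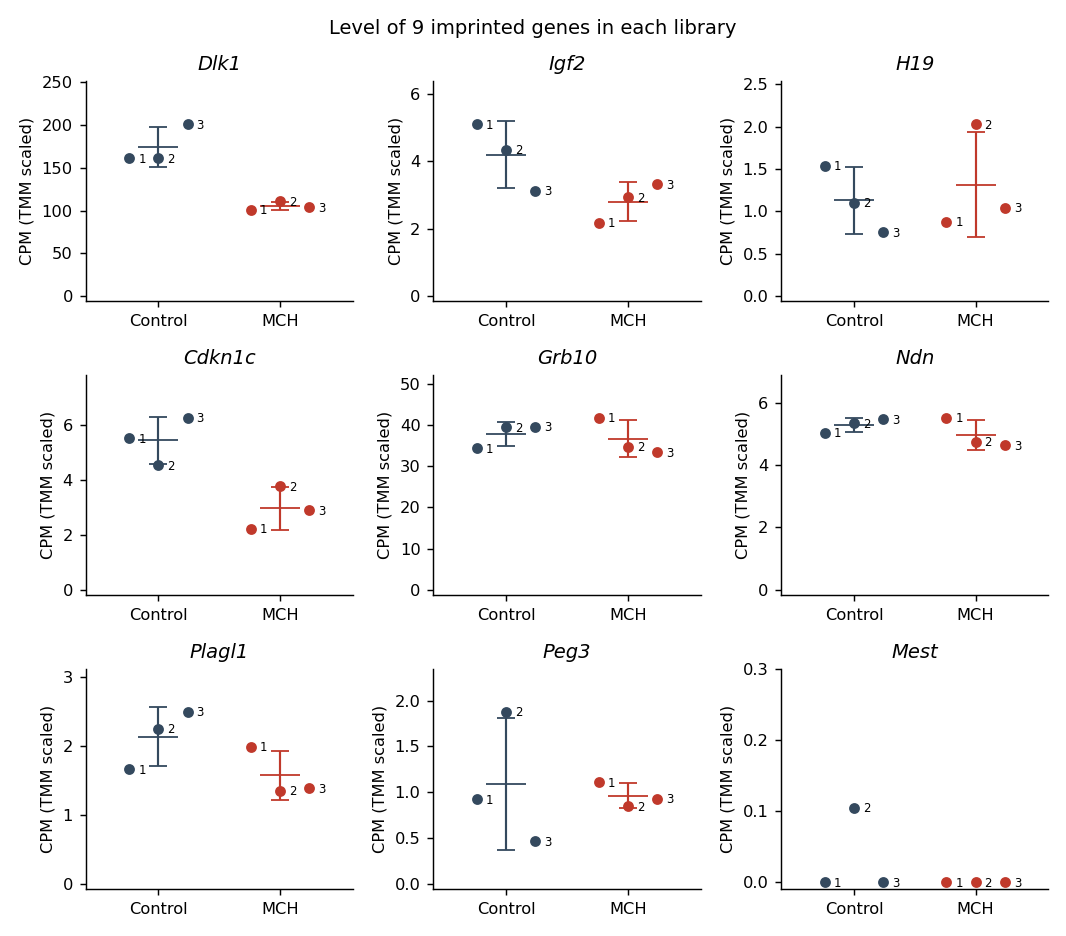
Level of each member in each library, in TMM-scaled CPM, with 1 panel per gene and axes from 0; points are libraries numbered by replicate, wide bars the group means and whiskers the SD (n = 3; not drawn for Mest). The 2 groups are separate for Dlk1 and Cdkn1c and overlap for the other tested genes.

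Among the ligand-like members, Dlk1 fell. Dlk1 encodes delta-like 1 (also called preadipocyte factor 1), a membrane protein with EGF-like repeats that is shed as a soluble form and is known to hold back the differentiation of adipocyte and osteoblast precursors. The gene lies at chr12:109452823-109463336 on the plus strand (GRCm38). Its level was 101, 111 and 104 CPM in MCH replicates 1 to 3 and 161, 161 and 201 CPM in Control replicates 1 to 3, from 1725 to 3467 counts per library. The MCH libraries lay close together, the Control libraries were spread more widely, and the lowest Control library was well above the highest MCH library. The means were 105 ± 4.93 and 174 ± 23.4 CPM (SD, n = 3), a log2 change of -0.73 ± 0.10 (SE; 95% interval -0.95 to -0.50; edgeR adjusted p = 0.00584), or 1.65-fold lower. The call was kept in each of the 6 fits with 1 library left out (edgeR adjusted p 0.00996 to 0.0367), and the change was smallest, -0.61, without Control replicate 3, the library with the highest level. In the authors' deposited table Dlk1 has a q-value of 0.000238 and is marked neither UP nor DOWN. In bulk RNA, fewer cells that express Dlk1 and less Dlk1 RNA per cell cannot be told apart. Of the 10 mesenchymal stromal markers, 5 fell with MCH, among them Pdgfra by 0.69 ± 0.07 and Pdgfrb by 0.84 ± 0.08 on the log2 scale, and the other 5 (Cxcl12, Prrx1, Thy1, Lepr and Eng) did not pass. Of 5 tested osteoblast genes 3 fell (Alpl by 1.28 ± 0.08, Spp1 by 1.06 ± 0.06 and Col1a2 by 0.52 ± 0.08), and both tested chondrocyte genes fell (Acan by 0.69 ± 0.15 and Sox9 by 0.39 ± 0.08). Of 4 tested smooth muscle and pericyte genes, 1 rose (Tagln by 0.35 ± 0.08) and none fell. Of 2 tested adipocyte genes, Lpl rose by 0.43 ± 0.10 and Fabp4 did not pass. Over all genes, 5.4% fell and 3.64% rose. The part of the markers named here in the fall of Dlk1 was not tested.

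Igf2, the insulin-like growth factor that drives fetal growth, was low in these cells. It lies at chr7:142650766-142666816 on the minus strand. Its level was 2.17, 2.93 and 3.31 CPM with MCH and 5.10, 4.34 and 3.13 CPM in Control, from 37 to 83 counts. Control replicate 3 lay below MCH replicate 3, so the groups overlapped. The log2 difference of -0.58 ± 0.24 (95% interval -1.14 to -0.011) did not pass (edgeR adjusted p = 0.179), nor in any of the alternatives run. A coding gene that overlaps Igf2 on the same strand in GENCODE M21, Gm49394, was not analysed here, and how reads shared by both were counted is not given in the sources. The antisense gene Igf2os had 0 to 2 counts.

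H19, the long non-coding RNA that shares an imprinting control region and enhancers with Igf2, was lower still. It lies at chr7:142575529-142578143 on the minus strand. It had 15, 36 and 18 counts with MCH and 25, 21 and 13 in Control (0.880, 2.03 and 1.04 against 1.54, 1.10 and 0.755 CPM). MCH replicate 2 was the highest of the 6 and Control replicate 3 the lowest, and the groups overlapped throughout. The log2 difference was 0.23 ± 0.41 (95% interval -0.73 to 1.19, edgeR adjusted p = 0.766). It became -0.22 without MCH replicate 2. No difference in H19 was detectable at this depth, and the interval holds both falls and rises.

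Among the intracellular brakes on growth, Cdkn1c came nearest to the threshold without passing. It encodes p57, an inhibitor of the cyclin-dependent kinases that carry cells from G1 into S phase, and lies at chr7:143458350-143461050 on the minus strand. Its counts were 38, 67 and 50 with MCH and 90, 87 and 108 in Control, that is 2.23, 3.78 and 2.90 CPM against 5.53, 4.55 and 6.27 CPM. Every MCH library lay below every Control library. The means were 2.97 ± 0.778 and 5.45 ± 0.861 CPM (SD, n = 3), with a log2 difference of -0.87 ± 0.23 (95% interval -1.4 to -0.34, edgeR adjusted p = 0.0559). It passed under 4 of the 16 alternatives: DESeq2 (adjusted p = 0.0317), edgeR without a filter on low counts (adjusted p = 0.0424) and limma on log2(FPKM + 1) and log2(FPKM + 0.1) (adjusted p = 0.0443 and 0.0497). It did not pass with any library left out (edgeR adjusted p 0.0558 to 0.172), and the authors' deposited table gives a q-value of 0.0821.

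Grb10 encodes an adaptor that binds the insulin and IGF1 receptors and dampens their signal (chr11:11930508-12038683, minus strand). It stood at 41.7, 34.7 and 33.4 CPM with MCH and 34.3, 39.4 and 39.5 CPM in Control. The highest library and the lowest one were both MCH libraries. The log2 difference was -0.046 ± 0.11 with a 95% interval of -0.30 to 0.21 (edgeR adjusted p = 0.823), the narrowest interval after that of Dlk1. Ndn encodes necdin, a MAGE family protein that binds E2F1 and p53 and is known to hold back proliferation (chr7:62348277-62349928, plus strand). Its level was 5.51, 4.74 and 4.64 CPM with MCH and 5.04, 5.34 and 5.46 CPM in Control, with a log2 difference of -0.088 ± 0.14 (95% interval -0.42 to 0.25, edgeR adjusted p = 0.740). For both genes a change by 1.65-fold, the size seen for Dlk1, lies outside the interval.

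The zinc finger members were at the low end. Plagl1 (also called Zac1), a transcription factor that can arrest the cell cycle and that regulates other imprinted genes (chr10:13060504-13131694, plus strand), had 34, 24 and 24 counts with MCH and 27, 43 and 43 in Control. MCH replicate 1 lay above Control replicate 1, and the log2 difference was -0.44 ± 0.26 (95% interval -1.05 to 0.17, edgeR adjusted p = 0.332). Peg3, a zinc finger protein linked to p53-dependent cell death and to stem cell pools (chr7:6703892-6730421, minus strand), had 19, 15 and 16 counts with MCH and 15, 36 and 8 in Control. The Control libraries enclosed all MCH libraries, and the log2 difference of -0.20 ± 0.49 (edgeR adjusted p = 0.831) became 0.48 without Control replicate 2. Mest, which encodes a protein with a hydrolase fold and is abundant in fetal mesoderm (chr6:30723547-30748465, plus strand), had 0 counts in 5 libraries and 2 in Control replicate 2. A count of 0 allows up to 3 counts, or 0.169 to 0.184 CPM in these 5 libraries, and covers counting error only. The opposite-strand neighbour Copg2, which overlaps Mest, had 693 to 1054 counts.

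**Figure D2:**
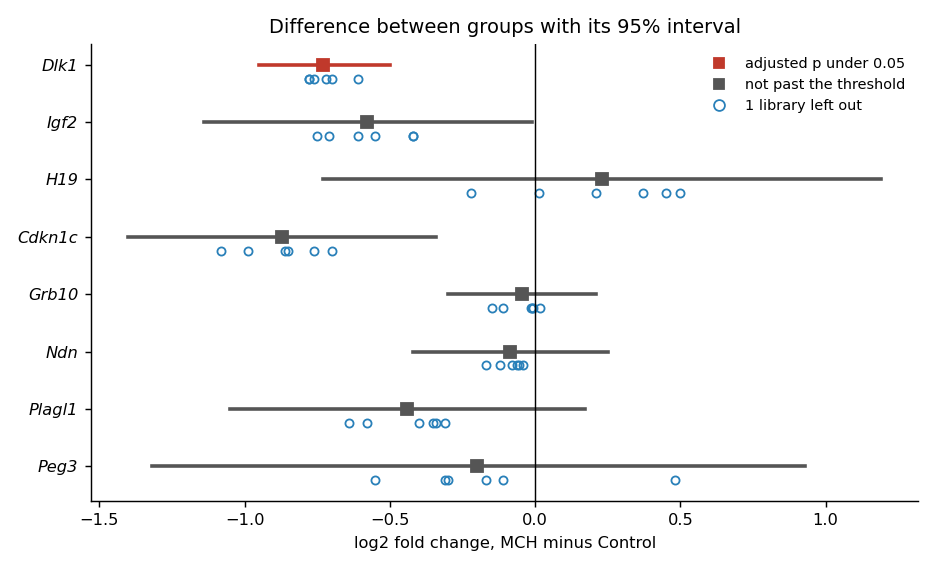
Log2 fold change of the 8 tested members, MCH minus Control; squares are the fitted values, lines their 95% intervals and open circles the values with 1 library left out. Only Dlk1 is past the threshold (-0.73), the intervals of Cdkn1c (-1.4 to -0.34) and Igf2 (-1.14 to -0.011) also lie below 0, and the intervals of H19 and Peg3 are the widest.

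To compare levels between genes, CPM was divided by the length of the merged exons in GENCODE M21 within the deposited locus. On that scale (CPM per kilobase, mean of 6 libraries) the order was Dlk1 at 24.7, Grb10 at 4.09, Ndn at 3.10, Cdkn1c at 2.08, Igf2 at 0.611, H19 at 0.498, Plagl1 at 0.238 and Peg3 at 0.0771, with Mest below the level of 3 counts. Dlk1 lay above 83.6% of the tested genes, Grb10 above 43.5%, Cdkn1c above 28.9%, Igf2 above 11.9%, H19 above 9.88% and Peg3 above 0.441%. Among neighbours in this order, the ranges over the 6 libraries overlapped for Ndn and Cdkn1c (2.81 to 3.34 and 1.1 to 3.09), for Igf2 and H19 (0.379 to 0.891 and 0.307 to 0.826) and, narrowly, for H19 and Plagl1 (0.173 to 0.319). The other neighbours did not overlap. The order of Igf2 and H19 differed between the groups: Igf2 stood at 0.49 and H19 at 0.536 with MCH, and at 0.733 and 0.459 in Control. Deposited FPKM was not used for this order, because the gene length it implies exceeds the whole locus for H19 (5688 against 2615 bases), Dlk1 (16789 against 10514) and Cdkn1c (2815 against 2701). An excess of over 1% was seen for 6.31% of the 12517 genes with at least 20 counts in MCH replicate 1.

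The members share more than the rule asked for in their position: H19, Igf2, Cdkn1c, Ndn and Peg3 all lie on chromosome 7. H19 and Igf2 adjoin each other, and Cdkn1c lies in a separate domain of the same distal region. That region was listed as 1 group. Ndn and Peg3 lie in other domains, central and proximal. Other imprinted genes of the same domains were examined from a list, of which 27 had a row and 16 were tested. None of the 16 was called in either direction by edgeR or limma-voom (2 had an unadjusted p under 0.05 in edgeR), nor any of the 13 to which DESeq2 gave an adjusted p, and the median log2 fold change was -0.0067. The listed neighbours of Dlk1 on chromosome 12 were nearly silent: Rtl1 had 0 to 4 counts, Rian 0 to 5, Mirg 8 to 22 and Dio3 6 to 14. Of these, Dio3, which encodes the enzyme that inactivates thyroid hormone, had a log2 difference of -0.60 ± 0.39 (edgeR adjusted p = 0.362) and Mirg, a microRNA host RNA, of -0.12 ± 0.47 (edgeR adjusted p = 0.9). Of the listed genes of this domain with a row, Dlk1 alone exceeded 22 counts in any library. Meg3, also on chromosome 12, had no row, so its level is not known here.

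In the Cdkn1c domain, Kcnq1ot1, the paternally expressed RNA that silences the paternal copies of its neighbours, had 128 to 252 counts and a log2 difference of -0.40 ± 0.23 (edgeR adjusted p = 0.308). Cd81 and Nap1l4, which flank the same domain and are widely expressed, had differences of -0.0085 ± 0.06 and -0.0049 ± 0.06. Phlda2, a placental growth brake, had 0 to 8 counts. Near Ndn, the smallest p-values belonged to genes with higher levels with MCH, Peg12 (0.46 ± 0.16, edgeR adjusted p = 0.110), the spliceosome gene Snrpn (0.24 ± 0.09, edgeR adjusted p = 0.156) and Snhg14, a host of small nucleolar RNAs (0.41 ± 0.24, edgeR adjusted p = 0.309), and none of these passed. Ube3a, a ubiquitin ligase gene, stood at 14.5, 58.8 and 16.4 CPM with MCH and 10.6, 61.8 and 7.43 CPM in Control, with replicate 2 high in both groups.

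Imprinted genes at other loci gave the same count, with 0 of 20 tested genes called by edgeR or limma-voom (3 with an unadjusted p under 0.05 in edgeR), 0 of the 18 to which DESeq2 gave an adjusted p, and a median of -0.0022. Together, 36 other imprinted genes were tested, their log2 fold changes ran from -0.63 to 0.92, and 1 of the 44 imprinted genes tested (2.27%) passed, against 9.04% of all genes. The background share depends on the libraries: without MCH replicate 3, 2.31% of all genes and 2.22% of the imprinted genes passed, and without MCH replicate 1, 11.4% and 6.82%. Without MCH replicate 1, Igf2r and Peg12 passed beside Dlk1. The placental amino acid transporter gene Slc38a4 had the largest log2 difference, 0.92 ± 0.33 at 11 to 34 counts per library (edgeR adjusted p = 0.123). The other genes of lowest p were the phosphoinositide phosphatase gene Inpp5f at -0.28 ± 0.10 (0.122 adjusted), the paraoxonase gene Pon2 at 0.19 ± 0.07 (0.13 adjusted) and the docking protein gene Gab1 at -0.25 ± 0.11 (0.204 adjusted). Igf2r, the receptor that clears IGF2, differed by -0.21 ± 0.13 (edgeR adjusted p = 0.366), and Gnas, the stimulatory G protein subunit, by 0.077 ± 0.07 (edgeR adjusted p = 0.501).

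**Figure D3:**
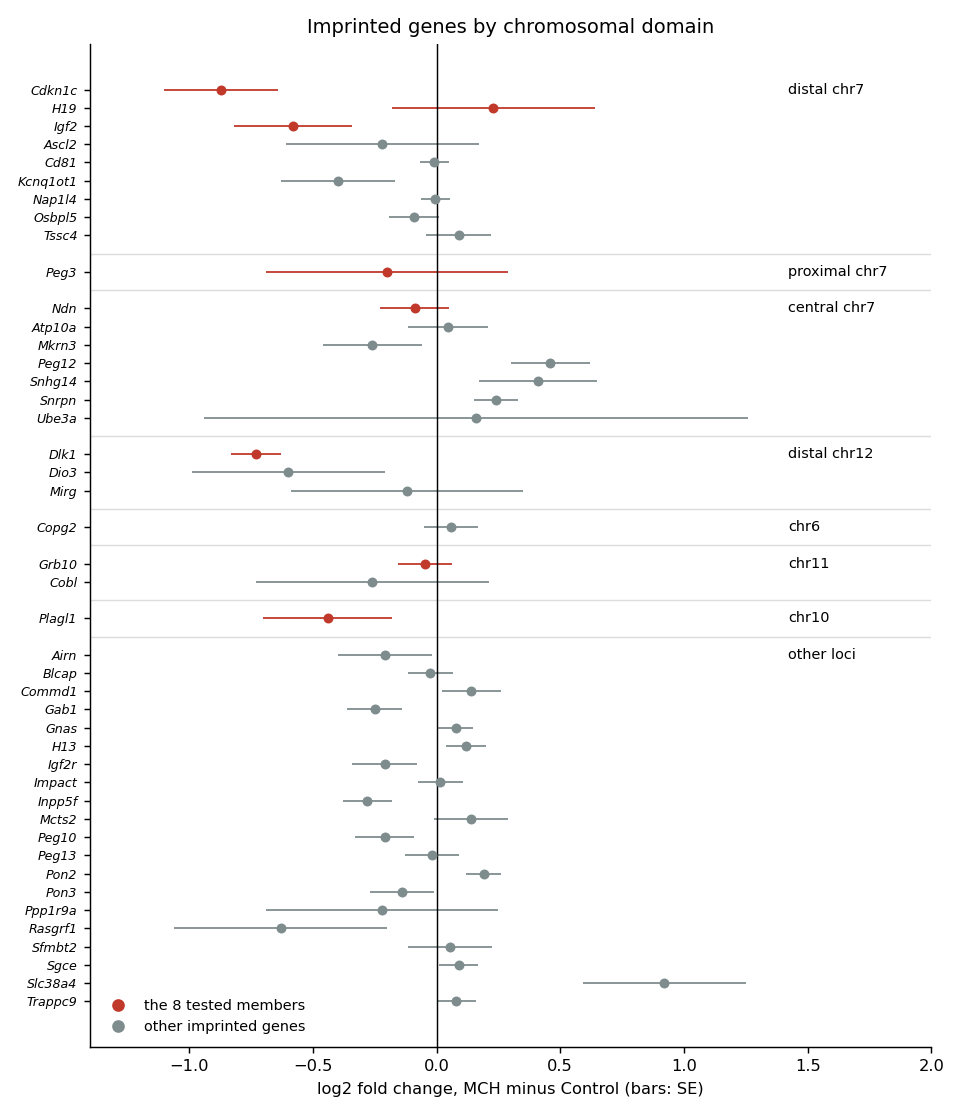
Log2 fold change (MCH minus Control) of the 44 tested imprinted genes, grouped by chromosomal domain, with distal chromosome 7 as 1 group. Bars are SE, red points the 8 members and grey points 36 other imprinted genes. Dlk1 at -0.73 is the 1 gene past the threshold, and most well-counted genes lie near 0.

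Genes that keep the imprint were measured as a further list, among them the zinc finger protein genes Zfp57 and Zfp445, the corepressor gene Trim28 and the DNA methyltransferase gene Dnmt1. All 17 were tested, none passed by edgeR or limma-voom (4 had an unadjusted p under 0.05 in edgeR), and the median was 0.042. The nearest were Tet2, which oxidises methylcytosine, at -0.37 ± 0.10 (edgeR adjusted p = 0.0568), the histone methyltransferase gene Setdb1 at 0.37 ± 0.11 (0.0757) and Uhrf1, the partner of DNMT1, at 0.28 ± 0.09 (0.0892), followed by Tet3 at -0.29 ± 0.13 (0.185). DESeq2 called Tet2 lower and Setdb1 higher.

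Of 13 genes of the IGF and insulin receptor axis, on which Igf2 and Grb10 act, 1 fell and none rose, near the 9.04% called over all genes, with a median of -0.10. Igf1r, the receptor for IGF1 and IGF2, fell from 37.6 ± 2.43 to 28.1 ± 2.72 CPM (SD, n = 3), a log2 change of -0.42 ± 0.10 (edgeR adjusted p = 0.0365). This call was kept without MCH replicate 1 (edgeR adjusted p = 0.0195) and lost without any of the other 5 libraries (0.058 to 0.142). Igf1 had a log2 difference of 1.00 ± 0.29 from 20 to 70 counts (edgeR adjusted p = 0.0745), the growth kinase gene Mtor one of -0.23 ± 0.07 (0.0983), the RNA-binding protein gene Igf2bp2 one of 0.36 ± 0.12 (0.101) and the receptor gene Insr one of 0.0035 ± 0.09 (edgeR adjusted p = 0.985).

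Of 16 CDK inhibitors and G1 regulators, the class to which Cdkn1c belongs, 2 rose and none fell, with a median of 0.14. Both were G1 cyclin genes. Over all genes 3.64% rose and 5.4% fell, or 9.04% in either direction, and 2 calls are too few for a result about the list. Ccnd1 (cyclin D1) rose from 91.5 ± 4.41 to 134 ± 5.78 CPM (0.55 ± 0.06, edgeR adjusted p = 0.00335), and Ccne1 (cyclin E1) from 21.8 ± 0.902 to 31.0 ± 2.23 CPM (0.50 ± 0.09, edgeR adjusted p = 0.0157). The Ccne1 call was lost without MCH replicate 2 (0.0564), MCH replicate 3 (0.0739) or Control replicate 3 (0.0657). The other inhibitors of the CIP/KIP family, Cdkn1a and Cdkn1b, had differences of 0.070 ± 0.07 and 0.068 ± 0.08 and did not pass. Per kilobase they stood at 72.5 and 22.4 CPM, against 2.08 CPM for Cdkn1c. Ccne2 (cyclin E2) and Ccnd2 (cyclin D2) had differences of 0.41 ± 0.12 and 0.20 ± 0.07 and did not pass (edgeR adjusted p = 0.0694 and 0.122). Of 15 proliferation genes, 12 rose and none fell, against 3.64% and 5.4% of all genes, with a median of 0.45. The smallest p-values were those of the replication genes Mcm6 (0.63 ± 0.06), Rrm2 (0.60 ± 0.06), Top2a (0.45 ± 0.06) and Mcm5 (0.40 ± 0.06). Mki67 (0.084 ± 0.07, edgeR adjusted p = 0.503), Mcm4 (0.22 ± 0.09, 0.17) and Aurkb (0.32 ± 0.10, 0.0883) did not pass. That list was already known to rise in these data, and its counts give no separate support.

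**Figure D4:**
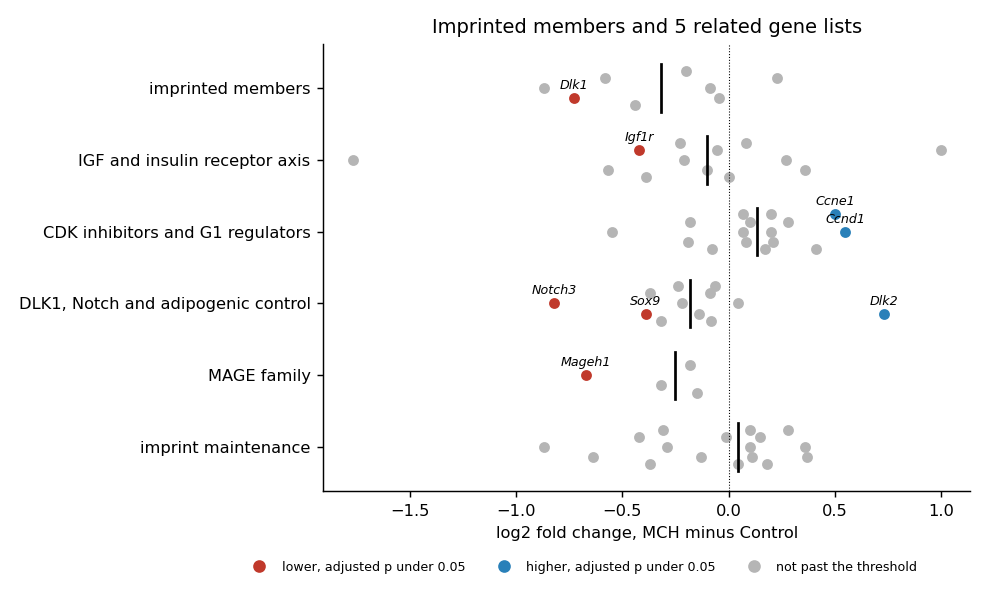
Log2 fold change (MCH minus Control) of the tested genes of the imprinted set and of 5 related lists; each point is a gene, coloured by whether and in which direction it passed (edgeR adjusted p under 0.05), and black bars are list medians. Dlk1 and Dlk2 lie at -0.73 and 0.73, and no imprint maintenance gene passed.

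The list around DLK1, Notch and adipogenic control held 12 tested genes, of which 1 rose and 2 fell, with a median of -0.18. The shares over all genes were 3.64% higher and 5.4% lower. Dlk2, the non-imprinted homologue of Dlk1, moved the opposite way: its MCH libraries held 32.8, 35.3 and 35.2 CPM and its Control libraries 21.8, 19.3 and 21 CPM. The groups were well apart, with a log2 change of 0.73 ± 0.08 (edgeR adjusted p = 0.00328) that kept its call with each library left out (0.0056 to 0.0206). Per kilobase, Dlk2 stood at 13 CPM beside 24.7 CPM for Dlk1. Notch3, a receptor of the Notch pathway, fell by 0.82 ± 0.19 (edgeR adjusted p = 0.0462), and Sox9, a chondrocyte factor, by 0.39 ± 0.08 (edgeR adjusted p = 0.0307). Both calls were fragile: that of Notch3 was lost without MCH replicate 2 or 3 or Control replicate 2 or 3 (0.14 to 0.15), and that of Sox9 was kept only without MCH replicate 1 (0.0214 there, 0.0744 to 0.125 in the other fits). Notch2, another receptor, differed by -0.32 ± 0.09 (edgeR adjusted p = 0.0695, called by DESeq2). Pparg and Cebpa, which drive adipocyte formation, differed by -0.14 ± 0.19 and -0.086 ± 0.12 and did not pass. Of 5 adipocyte genes, Lpl was higher (0.43 ± 0.10, edgeR adjusted p = 0.0344) and Fabp4 did not pass (-0.35 ± 0.12, edgeR adjusted p = 0.112). Adipoq, Plin1 and Cidec had 0 to 3, 0 to 2 and 0 to 4 counts and were not tested.

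Of the MAGE family, to which Ndn belongs, 4 members were tested: 1 fell and none rose, against 5.4% and 3.64% of all genes. Mageh1 fell from 25.6 ± 0.645 to 16.1 ± 0.846 CPM (SD, n = 3), a log2 change of -0.67 ± 0.09 (edgeR adjusted p = 0.00442), kept with each library left out (0.0105 to 0.0277). Maged1, with a mean of 788 CPM in MCH libraries and 875 CPM in Control libraries, did not pass (-0.15 ± 0.06, edgeR adjusted p = 0.147), nor did Maged2 (-0.32 ± 0.10, 0.0781) or Magee1 (-0.18 ± 0.09, 0.264). DESeq2 also called Maged2 lower.

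By the likeness of log2 CPM over the 6 libraries, the genes most like Dlk1 were Dtx4 (Pearson r = 0.9983) and Akna (0.9949). The 6 values share the difference between groups, and 768 genes had an r over 0.9, so this is a description only.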

How the data were processed

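Polyadenylated RNA of 6 samples was sequenced. Per the file headers, the deposited table holds read counts and FPKM per gene and library, beside p-values and q-values of the authors. The submitters' processing notes name GRCm38 (mm10). How reads were aligned and counted, with which annotation and strand setting, and which test gave the p-values was not stated in any source used, so reads of overlapping or antisense genes cannot be told apart. MCH columns carry MCH in their names; the others were taken as Control because the series has no other group. Members and gene lists were chosen with earlier results of these data known.

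Counts of all genes were fitted with edgeR 4.0.16 (R 4.3.3): TMM scaling, filterByExpr (minimum count 10, minimum total 15), a robust quasi-likelihood fit with group as the single term, and Benjamini-Hochberg adjustment at 0.05. SE is the unshrunken log2 coefficient over the square root of F, and 95% intervals use the fit's degrees of freedom. The fit was tested on simulated data. The rule for named genes took every member, the 4 genes of each list with the smallest p and the 2 genes most like a called member; other genes named were picked for their role after their values were seen. Alternatives were other scalings and filters, DESeq2 1.42.0, limma 3.58.1 (voom, or log2 of FPKM), a block on replicate number, and fits without each library in turn. Exon lengths came from GENCODE M21 and sequences from RefSeq.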

Additional observations from a re-analysis of the deposited data

How the results depend on the processing

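Dlk1 stayed lower and past the threshold in all 16 alternatives, with log2 changes from -0.78 to -0.61. The count of members lower with MCH was 2 in place of 1 with DESeq2, without a filter on low counts and with limma on log2(FPKM + 1) or log2(FPKM + 0.1), the added gene being Cdkn1c each time. No alternative called a member higher. Directions turned for members that never passed: H19 ranged from -0.22 to 0.50 with 1 library left out, Peg3 from -0.55 to 0.48 (0.0041 with limma-voom) and Grb10 from -0.15 to 0.016, and the cause was not tested. H19, Peg3 and Plagl1 were not tested when at least 50 counts in 3 libraries were asked for, and DESeq2 gave Peg3 no adjusted p. Over all genes, the counts of 497 higher and 738 lower ran from 65 to 722 and from 256 to 867 with 1 library left out (lowest without MCH replicate 3, highest without MCH replicate 1), so the background shares given beside the members move with the libraries used. With a replicate block they were 28 and 151, Dlk1 kept its call (edgeR adjusted p = 0.0390), as did Dlk2 (0.0434) and Ccnd1 (0.0383), and the adjusted p of Cdkn1c became 0.161. The block ended the calls of Mageh1 (0.0589), Ccne1 (0.0889), Sox9 (0.142), Igf1r (0.155) and Notch3 (0.174). Samples with the same number did not deviate together (correlations of -0.18, -0.05 and -0.02 for numbers 1, 2 and 3). With 3 libraries per group and no statement in the labels, this cannot settle whether the numbers pair them. Depth limits H19, Plagl1 and Peg3, which had under 50 counts on average: of the 2235 tested genes at such counts 2.86% were called.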

Other observations

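Nedd4, the ubiquitin ligase known to bind GRB10, had 2148, 3864 and 18792 counts in Control replicates 1 to 3 and 3340, 2128 and 1750 with MCH. A single library, Control replicate 3, thus held most of its Control reads. Its log2 difference of -1.77 ± 0.97 did not pass (edgeR adjusted p = 0.326) and was -0.26 without Control replicate 3, and the gene was singled out after its values were seen.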
